A study of Homo sapiens with 8 samples.

Results

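Glycolysis splits glucose into pyruvate in the cytosol, and lactate dehydrogenase then turns pyruvate into lactate, which leaves the cell through monocarboxylate transporters. The 35 genes described here carry glucose into the cell, catalyse or control the steps from glucose to pyruvate, make and export lactate, and decide how much pyruvate enters the mitochondrion and the citric acid cycle. They were chosen by name, with no cut-off on their values but with earlier results of these data known. All 35 were found among the 62649 genes of the count files. All 35 also passed the filter on low counts that left 17671 genes for testing.

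The study sequenced poly-A RNA of SW620 and SW480, colorectal adenocarcinoma lines that derive from a lymph node metastasis and from the primary tumour of the same cancer. Its 4 groups of 2 libraries each were SW620 with caffeine, untreated SW620, SW480 with caffeine and untreated SW480. Both lines, treated or not, carried the PSMB8-mCherry (B8-mCherry) fusion, which makes their immunoproteasomes fluorescent, so no group lacked it. Caffeine is a methylxanthine that blocks adenosine receptors and, at higher concentrations, inhibits phosphodiesterases. The labels give caffeine at 30, 60, 100, 250 and 500 µM for 72 h and at 125 µM for 28 days, for SW620 alone, and do not tie a dose or time to the sequenced libraries of either line. They call the replicates biological without saying whether these were separate cultures or days. The p-values therefore weigh a difference only against the spread between these libraries, pooled over the 4 groups.

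Tumour cells commonly run glycolysis fast even where oxygen is present. Several of its genes are classical targets of hypoxia-inducible factors, heterodimers that bind a short core in DNA, ACGTG or GCGTG. Most steps can be carried out by more than 1 isoform, and the isoforms differ in affinity, regulation and usual tissue.

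Library totals ran from 15760259 to 23269315 reads assigned to genes. At that depth a count of 0 allows up to 3 counts, or 0.128 to 0.193 CPM (counts scaled to a common library size, after the trimmed-mean scaling of edgeR), which covers counting error only. Mitochondrially encoded genes took 1.63% of the reads of SW480 caffeine replicate 2 and 4.38% to 6.16% of those of the other 7 libraries. Of 9 markers of a colon epithelial line, summed at 4623 to 14326 CPM, CDX1 was at 0 in every library. CDH1 was below 1 CPM in SW480, and KRT20 was below 1 CPM in SW480 and in untreated SW620. Marker sums of other cell types lay at 5.60 to 48.6 CPM for 7 fibroblast genes (the higher values in SW620), 1.90 to 4.49 CPM for 7 leukocyte genes, 1.35 to 15.6 CPM for 4 endothelial genes and 0.506 to 2.92 CPM for 5 muscle genes. In RNA from whole cultures, fewer cells of a kind and less RNA per cell cannot be told apart.

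Promoters of members with the smallest adjusted p-values in SW620 (given with each gene further on) are shown, because hypoxia-inducible factors bind the core named above. SLC2A3 and HK1 also rank among these members but are left out. SLC2A3 has no window in the RefSeq table, and that of HK1 lies on a coding exon. Each line holds the 250 bases before the RefSeq start of transcription on GRCh38.p14, 5′ to 3′ on the strand of the gene, with every ACGTG or GCGTG core in capitals, on whichever strand it reads (CACGT and CACGC are the cores of the opposite strand, and CACGTG is ACGTG on both). The windows are chr12:6914330-6914579 (plus strand) for ENO2, chr3:48556804-48557053 (minus strand) for PFKFB4, chrX:78103998-78104247 (plus strand) for PGK1, chr1:42958869-42959118 (minus strand) for SLC2A1 and chr17:28576896-28577145 (minus strand) for ALDOC.
ENO2: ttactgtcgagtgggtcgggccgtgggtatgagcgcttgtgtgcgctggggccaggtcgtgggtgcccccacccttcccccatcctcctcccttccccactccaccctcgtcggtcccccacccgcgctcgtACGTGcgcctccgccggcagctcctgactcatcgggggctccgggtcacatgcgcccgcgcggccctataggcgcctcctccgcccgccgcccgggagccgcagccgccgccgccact
PFKFB4: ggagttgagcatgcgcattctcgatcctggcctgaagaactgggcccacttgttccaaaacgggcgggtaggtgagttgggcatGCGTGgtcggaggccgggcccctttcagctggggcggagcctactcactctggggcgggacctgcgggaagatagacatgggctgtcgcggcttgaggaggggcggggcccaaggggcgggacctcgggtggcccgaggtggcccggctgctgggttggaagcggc
PGK1: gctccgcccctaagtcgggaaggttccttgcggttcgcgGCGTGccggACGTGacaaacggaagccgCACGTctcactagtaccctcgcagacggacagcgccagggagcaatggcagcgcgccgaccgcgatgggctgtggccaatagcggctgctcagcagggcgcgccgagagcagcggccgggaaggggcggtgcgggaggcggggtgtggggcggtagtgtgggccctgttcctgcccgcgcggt
SLC2A1: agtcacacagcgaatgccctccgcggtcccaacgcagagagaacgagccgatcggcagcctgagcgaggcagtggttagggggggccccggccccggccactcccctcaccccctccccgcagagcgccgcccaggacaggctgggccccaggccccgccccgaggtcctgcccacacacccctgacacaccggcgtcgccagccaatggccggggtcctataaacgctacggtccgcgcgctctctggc
ALDOC: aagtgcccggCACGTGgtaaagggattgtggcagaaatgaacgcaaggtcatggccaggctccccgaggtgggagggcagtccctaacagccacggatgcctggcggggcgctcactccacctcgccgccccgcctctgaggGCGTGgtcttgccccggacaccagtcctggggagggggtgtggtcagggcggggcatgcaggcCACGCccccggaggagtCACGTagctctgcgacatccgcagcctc
The ALDOC window held 5 matches, the PGK1 window 3, and the ENO2 and PFKFB4 windows 1 each. No core lay in the printed bases of SLC2A1, and a GCGTG stood 26 bases after its start.

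The same search covered 300 bases (250 before to 50 after the start) of the 31 members with a window in the RefSeq table (all but SLC2A3, SLC2A4, PFKFB2 and SLC16A1), 1 window per gene, the nearest to the principal transcript's start. ACGTG was present in 11 of the 23 windows of members that rose with caffeine in SW620 (47.8%) and in 2 of the 8 windows of members that did not pass there (25%). It was present in 26.1% of the 12073 windows of tested genes and in 27.2% of the 1092 windows of genes that rose in SW620. GCGTG was present in 13 of the 23 windows (56.5%), in 4 of the 8 windows (50%) and in 49.9% of the windows of tested genes. Over all 35116 windows of the table the shares were 21.4% for ACGTG and 36.5% for GCGTG. These counts describe letters in a window and were given no test. The window's RefSeq start lay 3417 bases from the principal transcript's start for PFKM, 1658 for PGAM1, 1337 for GAPDH and 1212 for SLC16A3. Among the printed genes it lay 627 bases away for ENO2, 369 for ALDOC, 308 for SLC2A1, 87 for PFKFB4 and 74 for PGK1. A window with its start more than 250 bases away does not reach the principal start. For GAPDH, counted among the 11 windows above, and for PFKP, the bases after the start were not found in a transcript.

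In SW620, glycolytic transcripts were higher with caffeine along nearly the whole pathway. Of the 35 members 24 rose and 0 fell at an adjusted p under 0.05 (edgeR quasi-likelihood test, Benjamini-Hochberg over all tested genes), against 8.1% of all tested genes higher and 6.25% lower. The median log2 fold change was 0.74 over the members and -0.01 over all tested genes, and 12 members had a log2 fold change above 1. Of the 17 steps 16 held at least 1 gene that rose, and the exception was the entry of pyruvate into mitochondria. Together the 35 genes took 2.18% and 2.02% of assigned reads in the SW620 caffeine libraries and 1.18% and 1.16% in the SW620 controls. The count was 17 without SW620 control replicate 2 and 19 without SW620 control replicate 1, and 17 of the 24 calls held under every alternative tried. Summed marker levels that moved alongside were those of the 9 epithelial genes (14326 and 12917 CPM with caffeine, 10735 and 10667 CPM in controls), the 7 fibroblast genes (48.6 and 45.8 CPM against 37.8 and 40.1 CPM, 3 of 7 above 1 CPM and COL3A1 at 0), the 4 endothelial genes (15.2 and 15.6 CPM against 9.61 and 9.52 CPM, 2 of 4 above 1 CPM and KDR at 0) and the 5 muscle genes (1.96 and 1.71 CPM against 0.506 and 0.551 CPM, 1 and 0 of 5 above 1 CPM and MYOG at 0). Within the epithelial list KRT8, KRT18 and KRT19 made up most of the sum, while EPCAM (633 and 573 CPM with caffeine, 696 and 705 CPM in controls) and CDX2 (at most 87.9 CPM with caffeine, 134 and 128 CPM in controls) went the other way. The part of these markers in the result was not tested.

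**Figure D1:**
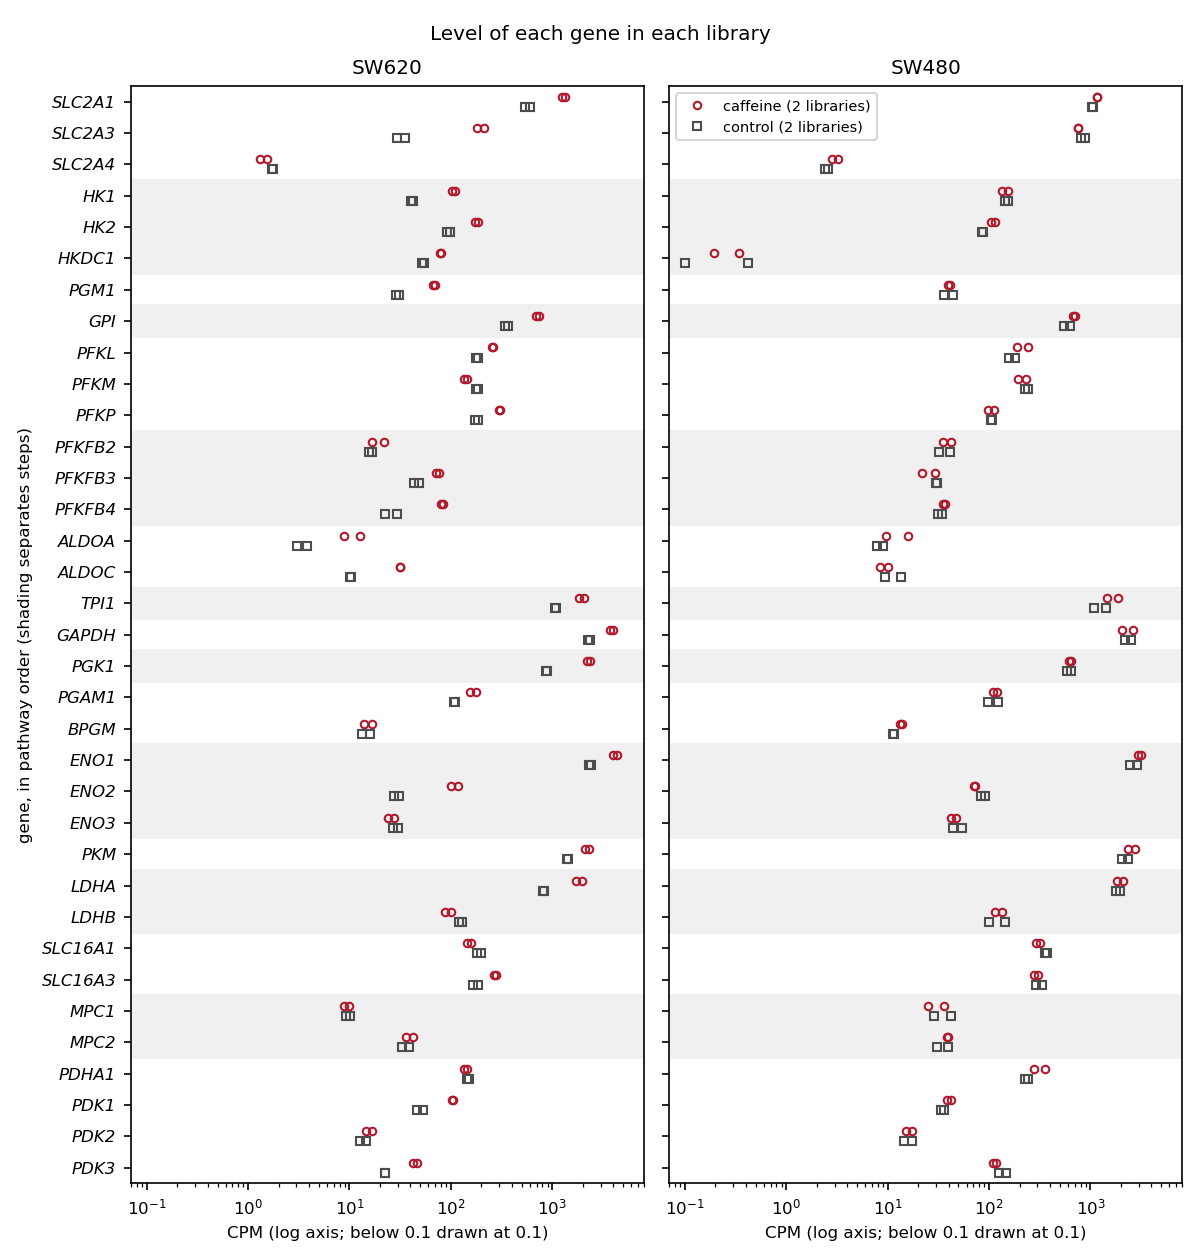
Level of each of the 35 genes in each of the 8 libraries (x axis, CPM on a log axis; values below 0.1 are drawn at 0.1), with SW620 on the left and SW480 on the right, circles for caffeine and squares for control libraries. SLC2A3, the member with the largest caffeine effect in SW620, is at 211 and 181 CPM with caffeine against 35.3 and 29.2 CPM in controls.

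In SW480 none of the 35 members passed in either direction (0 of 35 by edgeR, by DESeq2 and by limma-voom, with 7 at an unadjusted p under 0.05), against 3.6% of all tested genes. The median log2 fold change was 0.06 over the members and 0 over all tested genes, and the members ran from -0.33 (ALDOC) to 0.61 (ALDOA). The 35 genes took 1.68% and 1.77% of reads in the SW480 caffeine libraries and 1.51% and 1.64% in the SW480 controls. HKDC1 passed the filter on low counts only through SW620. Its SW480 libraries held 0 to 8 counts, with a log2 fold change of 0.42 ± 0.77 (SE), too few to detect a change of the size seen in SW620. The call depended on the libraries: 3 members passed without SW480 caffeine replicate 1 (PDHA1, ALDOA and PFKL, with adjusted p = 0.0152, 0.033 and 0.0338 by edgeR) and 1 without SW480 control replicate 2 (TPI1, edgeR adjusted p = 0.0324). Over all genes 636 passed in SW480, 50 without SW480 caffeine replicate 2, the library with the low mitochondrial share, and 1367 without SW480 control replicate 2.

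The difference of the caffeine effects, SW620 minus SW480, was tested directly. The estimate was positive for 27 of the 35 members. At an adjusted p under 0.05 by edgeR the difference was above 0 for 17 of 35 members and below 0 for none. Of all tested genes 4.24% were above 0 at that threshold. The median difference was 0.63 on the log2 scale over the members and -0.02 over all tested genes. The count was 11 without SW620 control replicate 1 and also 11 without SW620 control replicate 2. The effects in the lines share no libraries, while each difference reuses the SW620 and SW480 values given with it.

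**Figure D2:**
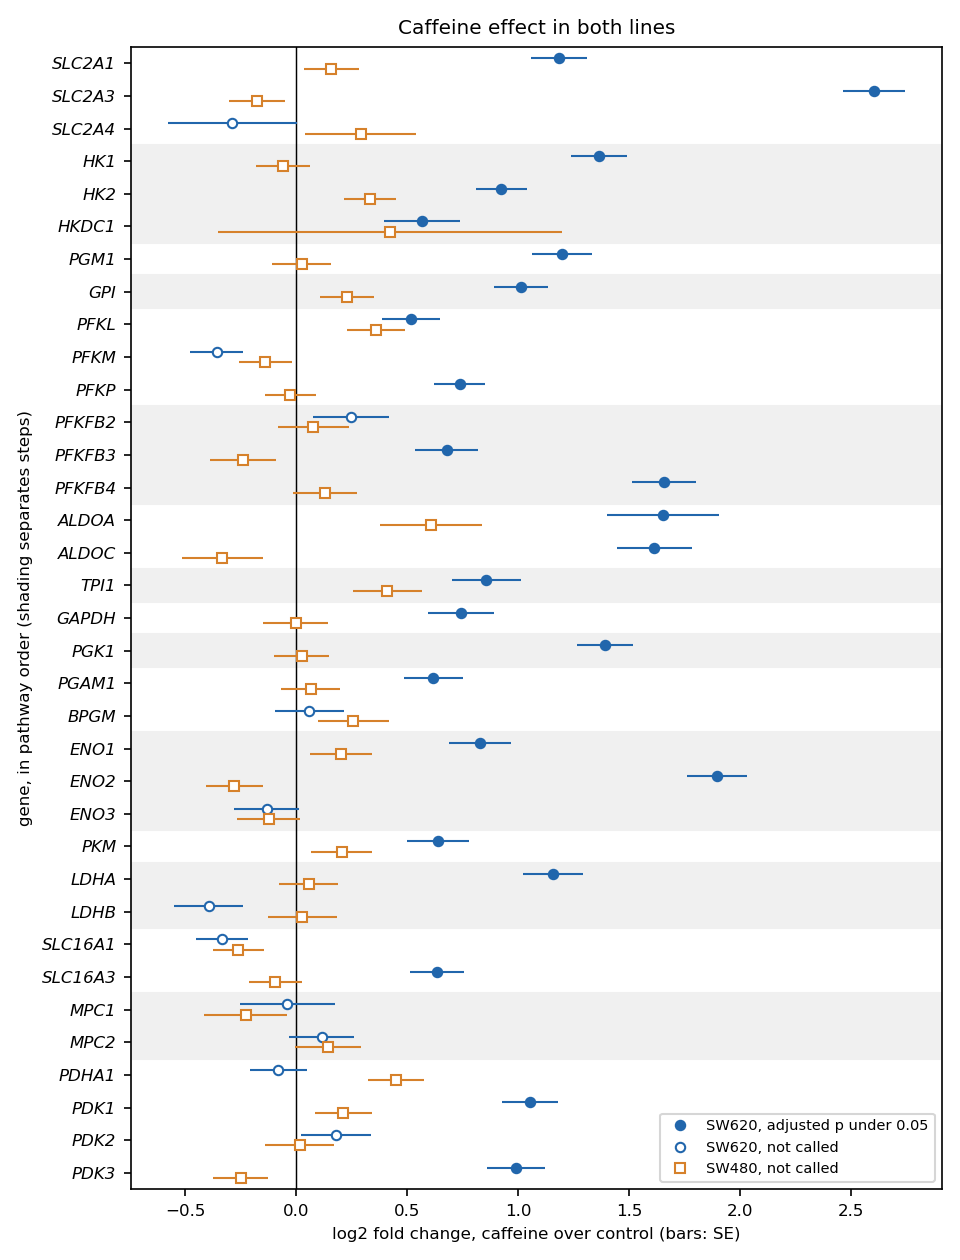
Log2 fold change of caffeine over control for each gene (x axis, bars are the SE) in SW620 (circles) and SW480 (squares); filled symbols passed at an adjusted p under 0.05. SW620 circles reach 2.60 for SLC2A3 and are filled for 24 genes, whereas the SW480 squares stay between -0.33 and 0.61 and are all open.

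At the cell surface, the facilitative glucose transporters SLC2A1 and SLC2A3 rose in SW620. SLC2A1 (GLUT1), the basal glucose transporter of most cells, had 1335 and 1259 CPM in the SW620 caffeine libraries, against 604 and 536 CPM in the SW620 controls. In SW480 it had 1174 and 1169 CPM with caffeine, against 1045 and 1054 CPM in controls. The libraries did not overlap in either line, but the gap was wide in SW620 alone, with a log2 fold change of 1.19 ± 0.12 (SE, edgeR adjusted p = 1.04e-05) in SW620 and 0.16 ± 0.12 (adjusted p = 0.514) in SW480. The difference between the lines was 1.03 ± 0.17 on the log2 scale (edgeR adjusted p = 0.00207).

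SLC2A3 (GLUT3, chr12:7919230-7936275 on GRCh38, minus strand), a high-affinity transporter best known from neurons, showed the largest caffeine effect of the 35 in SW620. Its level was 211 and 181 CPM in the SW620 caffeine libraries, against 35.3 and 29.2 CPM in the SW620 controls. In SW480 it was 751 and 755 CPM with caffeine, against 889.8 and 811 CPM in controls. Thus the lowest SW480 library stood above every SW620 library, treated or not. The log2 fold change was 2.60 ± 0.14 in SW620 (SE, edgeR adjusted p = 5.4e-09) and -0.18 ± 0.13 in SW480 (adjusted p = 0.478), a difference of 2.78 ± 0.19 (adjusted p = 1.79e-07). SLC2A4 (GLUT4), the insulin-responsive transporter of muscle and fat, stayed between 1.31 and 3.24 CPM in all libraries and did not pass.

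Hexokinases trap glucose as glucose 6-phosphate. HK1, the broadly expressed hexokinase, had 111 and 102 CPM in the SW620 caffeine libraries, against 42.6 and 40.1 CPM in the SW620 controls. It had 133 and 155 CPM in the SW480 caffeine libraries, against 144 and 155 CPM in the SW480 controls. The SW480 libraries overlapped and the SW620 libraries did not. The SW620 log2 fold change was 1.37 ± 0.13 (SE, edgeR adjusted p = 2.6e-06), and it exceeded that of SW480 by 1.42 ± 0.17 (adjusted p = 0.000126).

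HK2, the inducible hexokinase of many tumours, had 173 and 187 CPM in the SW620 caffeine libraries, against 97.8 and 92.0 CPM in the SW620 controls. Its SW480 values were 105 and 114 CPM with caffeine, against 88.1 and 85.8 CPM in controls. Caffeine libraries were the higher ones in both lines. The log2 fold change was 0.92 ± 0.12 (SE, edgeR adjusted p = 6.2e-05) in SW620 and 0.33 ± 0.12 (adjusted p = 0.127) in SW480, and the difference of 0.59 ± 0.16 (adjusted p = 0.0403) was not called when any library other than SW480 control replicate 2 was left out (adjusted p 0.0532 to 0.232).

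HKDC1, a later-described member of the hexokinase family, lies 2.424 kb from HK1 on chromosome 10. It had 78.0 and 79.4 CPM in the SW620 caffeine libraries, against 54.3 and 52.0 CPM in the SW620 controls. In SW480 it stayed at or below 0.424 CPM and had no count in 1 control library. Its SW620 log2 fold change of 0.57 ± 0.17 (SE, edgeR adjusted p = 0.0339) was not called when any 1 SW620 library was left out, where the adjusted p ran from 0.106 to 0.229.

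PGM1 interconverts glucose 1-phosphate and glucose 6-phosphate and so links glycogen with glycolysis. It had 70.5 and 66.7 CPM in the SW620 caffeine libraries, against 30.7 and 29.1 CPM in the SW620 controls, while the SW480 libraries overlapped at 39.8 and 41.6 CPM with caffeine and 36.0 and 44.1 CPM in controls. The rise in SW620 was 1.20 ± 0.13 on the log2 scale (SE, edgeR adjusted p = 1.87e-05), with a difference from SW480 of 1.17 ± 0.19 (adjusted p = 0.00127). GPI, which isomerises glucose 6-phosphate to fructose 6-phosphate, had 736 and 686 CPM in the SW620 caffeine libraries, against 364 and 341 CPM in the SW620 controls. Its SW480 values were 673 and 698 CPM with caffeine, against 548 and 622 CPM in controls. The rise of 1.01 ± 0.12 in SW620 (log2, SE, edgeR adjusted p = 3.82e-05) exceeded that in SW480 by 0.78 ± 0.17 (adjusted p = 0.0109). That difference was not called without SW620 caffeine replicate 1 or either SW620 control (edgeR adjusted p 0.0512 to 0.109).

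Phosphofructokinase makes the committed step, and its 3 isoforms did not move together in SW620. PFKP, the platelet-type isoform that many tumours express, had 302 and 300.0 CPM in the SW620 caffeine libraries, against 187 and 174 CPM in the SW620 controls. It overlapped in SW480, with 97.0 and 111 CPM under caffeine and 107 and 104 CPM in controls. The SW620 rise was 0.74 ± 0.12 (log2, SE, edgeR adjusted p = 0.000426), and the difference between lines was 0.76 ± 0.16 (adjusted p = 0.00971; 0.0546 and 0.0962 without SW620 control replicate 1 and 2).

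PFKL, the liver-type isoform, had 257 and 261 CPM in the SW620 caffeine libraries, against 185 and 177 CPM in the SW620 controls. Its SW480 values were 189 and 244 CPM with caffeine, against 156 and 182 CPM in controls. Both lines had the higher values with caffeine, with log2 fold changes of 0.52 ± 0.13 (SE, edgeR adjusted p = 0.0143) in SW620 and 0.36 ± 0.13 (adjusted p = 0.142) in SW480. The SW620 call was lost when any 1 SW620 library was left out (adjusted p 0.0649 to 0.157), and the difference between lines was not called. PFKM, the muscle-type isoform, had 136 and 145 CPM in the SW620 caffeine libraries, against 184 and 177 CPM in the SW620 controls. Both caffeine libraries were the lower ones. Its log2 fold change of -0.36 ± 0.12 (SE, edgeR adjusted p = 0.0568) missed the threshold, and it was called lower when SW620 was fitted alone (adjusted p = 0.00512) and when any 1 SW480 library was left out (0.0299 to 0.0393).

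The PFKFB enzymes make and degrade fructose 2,6-bisphosphate, the strongest allosteric activator of phosphofructokinase. PFKFB4, the testis-type isoform that many tumours express, had 84.5 and 79.2 CPM in the SW620 caffeine libraries, against 29.6 and 22.3 CPM in the SW620 controls. In SW480 it had 34.8 and 36.6 CPM with caffeine, against 31.0 and 34.3 CPM in controls. The groups did not overlap in either line. PFKFB4 rose in SW620 by 1.66 ± 0.15 (log2, SE, edgeR adjusted p = 1.59e-06), and the difference between lines was 1.53 ± 0.21 (adjusted p = 0.000269).

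PFKFB3, the isoform with the highest kinase over phosphatase activity, had 71.6 and 75.8 CPM in the SW620 caffeine libraries, against 48.4 and 43.7 CPM in the SW620 controls. In SW480 the caffeine libraries were the lower ones, at 21.9 and 29.4 CPM against 30.3 and 30.6 CPM in controls. The rise in SW620 was 0.68 ± 0.14 (log2, SE, edgeR adjusted p = 0.00414; adjusted p = 0.0913 without SW620 control replicate 2), and the difference between lines was 0.92 ± 0.21 (adjusted p = 0.0127; 0.0506 without SW620 caffeine replicate 2 and 0.0926 without SW620 control replicate 2). PFKFB2, the heart-type isoform, lay between 15.6 and 21.7 CPM in SW620 and between 31.9 and 41.8 CPM in SW480 and did not pass in either line.

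Aldolase cleaves fructose 1,6-bisphosphate into triose phosphates. ALDOC, the brain-type aldolase, had 31.3 and 31.3 CPM in the SW620 caffeine libraries, against 10.0 and 10.4 CPM in the SW620 controls. The SW480 libraries overlapped, at 10.0 and 8.35 CPM with caffeine and 9.38 and 13.6 CPM in controls. Its change in SW620 was 1.61 ± 0.17 (log2, SE, edgeR adjusted p = 1.05e-05), against -0.33 ± 0.18 (adjusted p = 0.332) in SW480, a difference of 1.95 ± 0.25 (adjusted p = 0.000179).

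ALDOA, the ubiquitous aldolase, was listed at only 8.87 and 12.7 CPM in the SW620 caffeine libraries, against 3.04 and 3.86 CPM in the SW620 controls. It was listed at 9.59 and 15.8 CPM in the SW480 caffeine libraries, against 8.96 and 7.94 CPM in the SW480 controls. In the annotation used here 82.6% of the bases of its principal transcript also belong to another gene on the same strand, and reads that fell on more than 1 gene were set aside as ambiguous, so these are not levels of the whole transcript. On the reads that remained, the log2 fold change was 1.65 ± 0.25 (SE, edgeR adjusted p = 0.000358) in SW620 and 0.61 ± 0.23 (adjusted p = 0.156) in SW480, and the difference was not called (adjusted p = 0.0774).

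From triose phosphates to pyruvate every enzyme had at least 1 gene that rose in SW620. TPI1, which equilibrates both triose phosphates, had 2073 and 1818 CPM in the SW620 caffeine libraries, against 1089.7 and 1059 CPM in the SW620 controls. Its SW480 values were 1461 and 1871 CPM with caffeine, against 1091 and 1417 CPM in controls. The caffeine libraries were the higher ones in both lines, with log2 fold changes of 0.86 ± 0.16 (SE, edgeR adjusted p = 0.00146) in SW620 and 0.41 ± 0.16 (adjusted p = 0.156) in SW480, and the difference was not called (adjusted p = 0.239).

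GAPDH, which makes the NADH of glycolysis, is often used as a reference transcript. It had 3951 and 3746 CPM in the SW620 caffeine libraries, against 2248 and 2348 CPM in the SW620 controls. The SW480 caffeine libraries, at 2657 and 2062 CPM, lay on both sides of the SW480 controls at 2212 and 2512 CPM. The SW620 rise was 0.74 ± 0.15 (log2, SE, edgeR adjusted p = 0.00293; adjusted p = 0.0696 and 0.0505 without SW620 control replicate 1 and 2). The difference between lines, 0.75 ± 0.21 (adjusted p = 0.0408), was not called without SW480 caffeine replicate 2 or without any 1 of the SW620 libraries (adjusted p 0.101 to 0.207). The genome holds 62 named processed copies of GAPDH. Reads of low mapping quality were set aside, which lowers the counts of genes with copies.

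PGK1, the first enzyme of glycolysis to make ATP, had 2381 and 2223 CPM in the SW620 caffeine libraries, against 872 and 884 CPM in the SW620 controls. In SW480 it had 647 and 608 CPM with caffeine, against 592 and 642 CPM in controls. Every SW620 library stood above every SW480 library, and within SW480 the groups overlapped. The SW620 log2 fold change was 1.39 ± 0.13 (SE, edgeR adjusted p = 2.06e-06), larger than that in SW480 by 1.37 ± 0.18 (adjusted p = 0.000183).

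PGAM1, a phosphoglycerate mutase, had 178 and 155 CPM in the SW620 caffeine libraries, against 109 and 108 CPM in the SW620 controls. In SW480 its groups overlapped, at 119.6 and 110.2 CPM with caffeine and 97.2 and 122 CPM in controls. It rose by 0.62 ± 0.13 in SW620 (log2, SE, edgeR adjusted p = 0.00474), a call lost without SW620 caffeine replicate 1 or either SW620 control (adjusted p 0.0631 to 0.0710). BPGM, which makes 2,3-bisphosphoglycerate in red cells, lay between 11.3 and 16.7 CPM in all libraries and did not pass.

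ENO1, the ubiquitous enolase, had 4319.8 and 3987 CPM in the SW620 caffeine libraries, against 2398 and 2280.3 CPM in the SW620 controls. Its SW480 values were 2941 and 3188 CPM with caffeine, against 2434 and 2901 CPM in controls. The rise in SW620 was 0.83 ± 0.14 (log2, SE, edgeR adjusted p = 0.000851), and the difference between lines was not called (adjusted p = 0.0663).

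ENO2, the neuron-type enolase, had 118 and 100.1 CPM in the SW620 caffeine libraries, against 31.2 and 27.3 CPM in the SW620 controls. In SW480 the caffeine libraries were the lower ones, at 72.5 and 71.0 CPM against 90.8 and 83.2 CPM in controls. The order of the lines therefore turned: untreated SW620 lay below both SW480 groups and caffeine-treated SW620 above them. The log2 fold change was 1.90 ± 0.14 (SE, edgeR adjusted p = 1.87e-07) in SW620 and -0.28 ± 0.13 (adjusted p = 0.251) in SW480, a difference of 2.17 ± 0.19 (adjusted p = 4.15e-06). ENO3, the muscle-type enolase, lay between 23.9 and 29.9 CPM in SW620 and between 42.6 and 54.2 CPM in SW480 and did not pass.

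PKM, which makes pyruvate in the last step, with a gain of ATP, had 2292 and 2116 CPM in the SW620 caffeine libraries, against 1399.6 and 1431 CPM in the SW620 controls. It had 2343 and 2742 CPM in the SW480 caffeine libraries, against 2056 and 2355 CPM in the SW480 controls. Counts per gene do not separate its M1 and M2 splice forms. The SW620 rise was 0.64 ± 0.14 (log2, SE, edgeR adjusted p = 0.00512) and was not called without SW620 caffeine replicate 1 or either SW620 control (adjusted p 0.0581 to 0.0988).

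Lactate dehydrogenase is a tetramer of A and B subunits, of which A favours making lactate. LDHA had 1946 and 1709 CPM in the SW620 caffeine libraries, against 810.0 and 829 CPM in the SW620 controls. In SW480 it had 2075 and 1844 CPM with caffeine, against 1806 and 1963 CPM in controls, so that 1 SW620 caffeine library lay within the range of SW480 and the other below it. The SW620 log2 fold change was 1.16 ± 0.13 (SE, edgeR adjusted p = 2.58e-05), and the difference between lines was 1.10 ± 0.19 (adjusted p = 0.0021). LDHB had 101 and 88.2 CPM in the SW620 caffeine libraries, against 121 and 128 CPM in the SW620 controls. Both caffeine libraries were the lower ones, but the log2 fold change of -0.39 ± 0.16 (SE, edgeR adjusted p = 0.103) did not pass, although it did when SW620 was fitted alone (adjusted p = 0.00562) and without SW480 control replicate 1 or 2 (0.0235 and 0.0315). Of LDHB's principal transcript 64.6% of the bases are shared with another gene on the same strand, so its counts too are incomplete.

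Of the lactate transporters, SLC16A3 (MCT4), the low-affinity exporter of glycolytic cells, had 278 and 264 CPM in the SW620 caffeine libraries, against 184 and 165 CPM in the SW620 controls. It had 302 and 279 CPM in the SW480 caffeine libraries, against 288 and 333 CPM in the SW480 controls. The groups overlapped in SW480 alone. The SW620 rise was 0.64 ± 0.12 (log2, SE, edgeR adjusted p = 0.00201; adjusted p = 0.0772 without SW620 control replicate 2), with a difference between lines of 0.73 ± 0.17 (adjusted p = 0.016). The difference was not called without SW480 caffeine replicate 2, SW620 caffeine replicate 1 or either SW620 control (edgeR adjusted p 0.0597 to 0.141).

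SLC16A1 (MCT1), which carries lactate in either direction with higher affinity, had lower values with caffeine in both lines. They were 145 and 157 CPM in the SW620 caffeine libraries, against 182 and 198 CPM in the SW620 controls, and 288 and 321 CPM in the SW480 caffeine libraries, against 376 and 353 CPM in the SW480 controls. The SW620 log2 fold change of -0.33 ± 0.12 (SE, edgeR adjusted p = 0.0673) missed the threshold and passed when SW620 was fitted alone (adjusted p = 0.00957) and without SW480 control replicate 1 or 2 (0.0357 and 0.0455).

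At the mitochondrial gate, the carrier subunits that bring pyruvate across the inner membrane did not pass in either line. MPC2 had 42.1 and 35.7 CPM in the SW620 caffeine libraries, against 33.0 and 38.9 CPM in the SW620 controls, and 39.0 and 38.2 CPM in the SW480 caffeine libraries, against 30.7 and 39.2 CPM in the SW480 controls. Its groups overlapped in both lines. MPC1 lay between 8.87 and 10.1 CPM in all SW620 libraries and averaged 30.6 ± 7.83 CPM in SW480 with caffeine and 35.6 ± 9.77 CPM in SW480 controls (SD, n = 2 each). PDHA1, the catalytic E1 subunit of pyruvate dehydrogenase, had 145 and 135 CPM in the SW620 caffeine libraries, against 151 and 146 CPM in the SW620 controls. Its SW480 values were 278 and 359 CPM with caffeine, against 225 and 241 CPM in controls. That was the smallest adjusted p among members in SW480, with a log2 fold change of 0.45 ± 0.13 (SE, edgeR adjusted p = 0.0617). Of its principal transcript 28.9% of the bases lie opposite another gene's exons.

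The pyruvate dehydrogenase kinases switch the complex off by phosphorylation, and 2 of the 3 listed here rose in SW620. PDK1 had 105 and 103 CPM in the SW620 caffeine libraries, against 46.8 and 53.3 CPM in the SW620 controls. In SW480 it had 42.0 and 38.9 CPM with caffeine, against 33.8 and 35.9 CPM in controls. It rose by 1.05 ± 0.13 in SW620 (log2, SE, edgeR adjusted p = 3.59e-05), more than in SW480 by 0.84 ± 0.18 (adjusted p = 0.00964; 0.104 without SW620 control replicate 1).

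PDK3 had 42.6 and 46.5 CPM in the SW620 caffeine libraries, against 22.6 and 22.2 CPM in the SW620 controls. In SW480 the caffeine libraries were the lower ones, at 118 and 110.2 CPM against 146 and 125 CPM in controls. The SW620 rise was 0.99 ± 0.13 (log2, SE, edgeR adjusted p = 0.000101), and the difference between lines was 1.24 ± 0.18 (adjusted p = 0.000587). PDK2 lay between 12.9 and 17.3 CPM in all libraries and did not pass, and 61.4% of the bases of its principal transcript lie opposite another gene's exons, where the unstated strand setting matters.

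Without caffeine, SW620 had less transcript than SW480 for many of these genes. Of the 35 members 5 were higher and 17 lower in untreated SW620 (edgeR adjusted p under 0.05), against 33% of all tested genes higher and 32.6% lower, and the median log2 difference was -0.37 over the members and 0.03 over all tested genes. The lower ones included SLC2A3, at 35.3 and 29.2 CPM in untreated SW620 against 889.8 and 811 CPM in untreated SW480 (log2 difference -4.72 ± 0.15, SE, edgeR adjusted p = 9.82e-14). The difference for LDHA was -1.20 ± 0.13 (edgeR adjusted p = 6.06e-07), for HK1 -1.86 ± 0.13 (adjusted p = 1.21e-09) and for PDK3 -2.59 ± 0.14 (adjusted p = 3.28e-11). The 5 higher ones were HKDC1, PFKP, PFKFB3, PGK1 and PDK1, with HKDC1 at 54.3 and 52.0 CPM in untreated SW620 against 0.424 and 0 CPM in untreated SW480. The line differences of PDK1, PFKM and PGM1 were not called without 1 or more of the control libraries (edgeR adjusted p 0.0513 to 0.103).

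Caffeine-treated SW620 lay above both SW480 groups for PGK1, ENO2, ALDOC, PFKFB4 and HK2, among others, and below them for the risers SLC2A3, HK1, SLC16A3 and PDK3. These positions are a description of levels, and the direct contrast of caffeine-treated SW620 with SW480 was not tested.

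Levels of different genes were compared per kilobase of merged exons, as CPM per kb, for 8 families of isoforms or subunits. The aldolases and lactate dehydrogenases were left out because of the shared bases of ALDOA and LDHB. In untreated cells the leading gene differed between SW620 and SW480 in 4 of the 8 families. HK2 led the hexokinases in SW620 (45.1% ± 0.218 of the summed level, SD, n = 2) and HK1 in SW480 (62.3% ± 1.78, n = 2). PFKP led the phosphofructokinases in SW620 (45.4% ± 0.474, n = 2) and PFKM in SW480 (43.9% ± 2.09, n = 2). The lead of PFKP rests on the length scaling, since PFKL, PFKM and PFKP each averaged 181 CPM in untreated SW620. MPC2 led the carrier in SW620 (69.2% ± 1.21, n = 2) and MPC1 in SW480 (62.4% ± 2.50, n = 2).

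Among the PFKFB enzymes, PFKFB3 held 56.4% ± 1.47 (SD, n = 2) in untreated SW620, while PFKFB4 and PFKFB3 were close in untreated SW480, at 38.5% ± 3.30 and 35.8% ± 0.851 (n = 2 each). With caffeine in SW620, PFKFB4 held 49.0% ± 2.66 and PFKFB3 44.1% ± 1.40, against 31.6% ± 3.23 for PFKFB4 and 56.4% ± 1.47 for PFKFB3 in controls (SD, n = 2 each). The SLC16A3 share of both lactate transporters was 51.5% ± 2.46 with caffeine in SW620, against 35.1% ± 3.10 in SW620 controls (SD, n = 2 each). On this scale SLC16A3 was ahead in 1 SW620 caffeine library and SLC16A1 in the other. That split depends on the length used, which for SLC16A3 was 8995 bases of merged exons, against 4830 of its longest transcript. In CPM without length scaling SLC16A3 was ahead in both SW620 caffeine libraries, at 278 and 264 against 145 and 157 for SLC16A1. The PFKP share was 56.3% ± 0.727 with caffeine, against 45.4% ± 0.474 in SW620 controls, and the PFKM share 17.4% ± 0.662 against 30.0% ± 0.278 (SD, n = 2 each). Within the glucose transporters SLC2A3 held 10.4% ± 0.603 with caffeine, against 4.13% ± 0.200 in SW620 controls, and 33.0% ± 0.143 with caffeine against 38.3% ± 1.69 in controls in SW480 (SD, n = 2 each). By mean share per kb, the leading gene differed with caffeine in 2 families in SW620, the PFKFB enzymes and the lactate transporters, and in 0 of 8 in SW480.

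**Figure D3:**
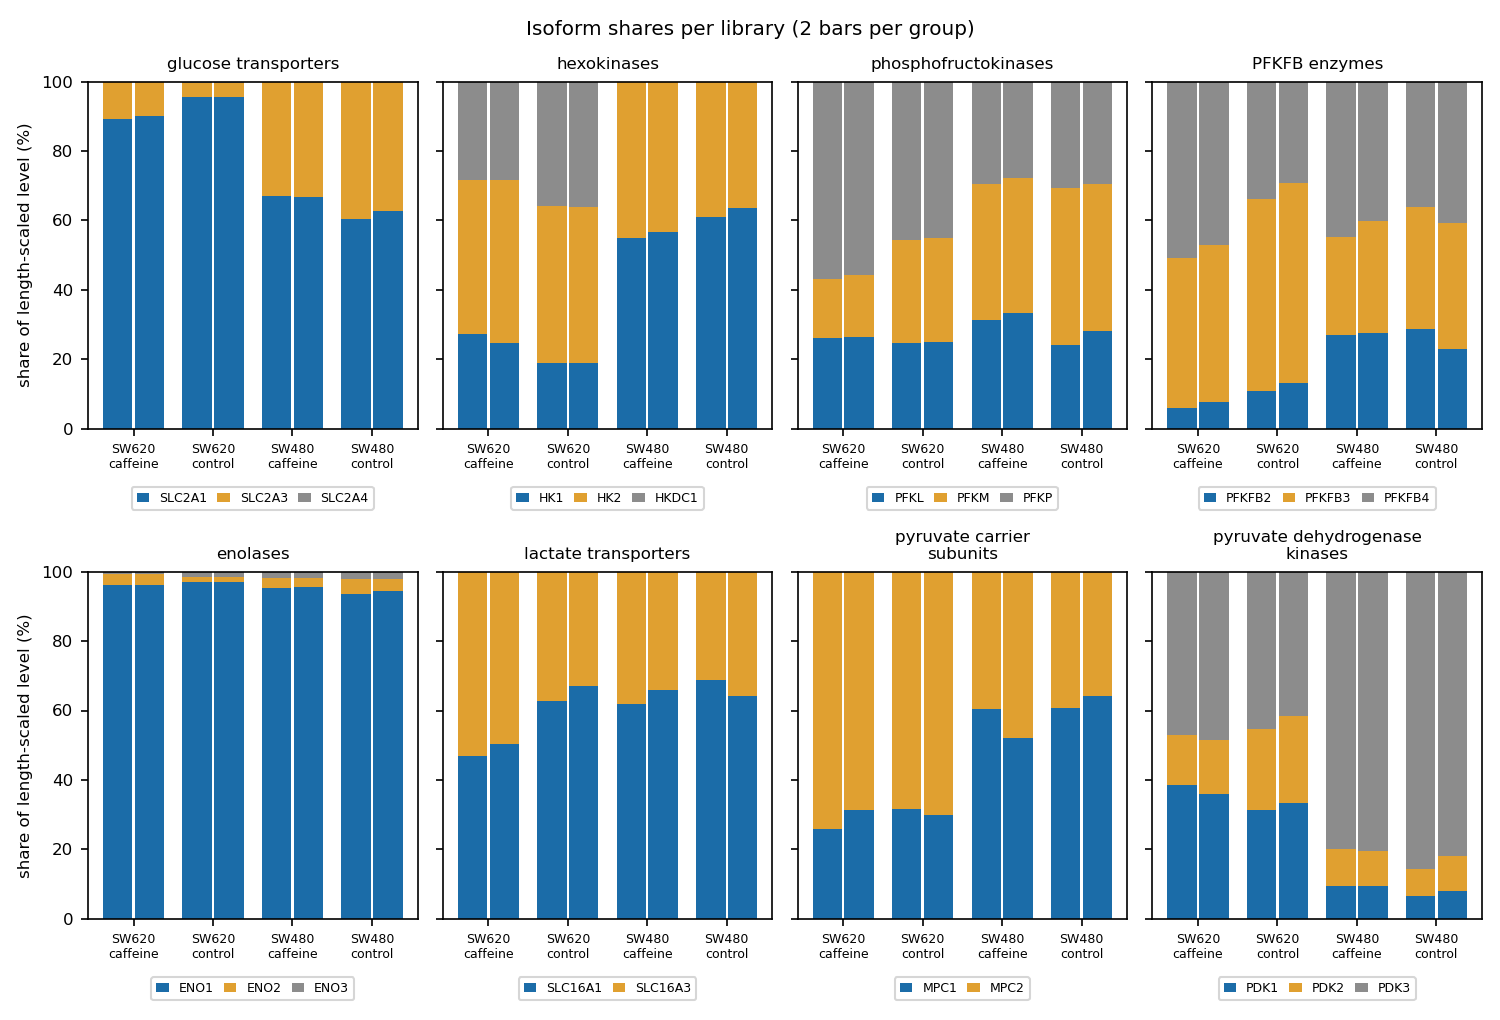
Share of each isoform or subunit in its family's summed level (y axis, % of CPM per kb of merged exons), with 1 bar per library and 2 bars per group. In the hexokinase panel HKDC1 fills 28.4% on average in SW620 with caffeine and 36.0% in SW620 controls, and it is near 0 in SW480.

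Genes of pathways that adjoin glycolysis were counted from lists that did not include the 35 members and were chosen with earlier results known. Among all tested genes 8.1% were higher and 6.25% lower in SW620, and 3.6% were called in SW480. In SW620 0 of 11 other glucose and lactate transporters were higher with caffeine and 1, SLC2A11, was lower. Of 6 other glycolytic and lactate enzymes that could be tested 0 passed, and of 8 further pyruvate dehydrogenase genes only PDP1, the phosphatase that counters the kinases, rose. Among 20 genes of the citric acid cycle OGDH rose and IDH1 fell, and 0 of 6 gluconeogenesis genes passed (1 did without the filter on low counts). The median log2 fold changes of these 5 lists in SW620 ran from -0.20 to 0.10. SLC2A11 was not called without SW620 caffeine replicate 2 or SW620 control replicate 2 (edgeR adjusted p = 0.057 and 0.126), PDP1 without SW620 caffeine replicate 2 or either control (0.107 to 0.235), and OGDH and IDH1 without any 1 SW620 library (0.0623 to 0.227). In SW480 the only calls in these lists and the glycogen list were PCK2, a gluconeogenic enzyme of mitochondria, which rose by 0.74 ± 0.14 (edgeR adjusted p = 0.0108), and GYG2, a glycogen primer, which fell by 0.92 ± 0.19 (adjusted p = 0.0169). Both calls were lost without SW480 caffeine replicate 2 or SW480 control replicate 1 (edgeR adjusted p 0.0659 to 0.180).

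Of 15 genes of glycogen metabolism 4 rose and 1 fell in SW620. GBE1, the branching enzyme, had 118 and 121 CPM in the SW620 caffeine libraries, against 44.0 and 46.9 CPM in the SW620 controls (log2 fold change 1.40 ± 0.13, SE, edgeR adjusted p = 2.03e-06). PGM2L1, which makes glucose 1,6-bisphosphate, and GYS1, the glycogen synthase of most tissues, also rose, by 1.06 ± 0.17 and 0.74 ± 0.14 (log2, SE, edgeR adjusted p = 0.000458 and 0.00209). PPP1R3B, a glycogen-targeting phosphatase subunit, rose by 1.38 ± 0.32 (edgeR adjusted p = 0.00736) at 0.952 to 3.83 CPM, and PPP1R3E, another such subunit, fell by 0.52 ± 0.12 (adjusted p = 0.00984). GYS1 and PPP1R3B were not called without SW620 control replicate 2 (edgeR adjusted p = 0.0669 and 0.146), nor PPP1R3E without that library, SW620 control replicate 1 or SW620 caffeine replicate 2 (0.0963 to 0.113). The median log2 fold change over the 15 was 0.12, beside -0.01 over all tested genes.

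Of 20 hypoxia-inducible genes outside glycolysis 13 rose and 1 fell in SW620, and the log2 fold changes had a median of 0.86. NDRG1, a stress-responsive gene of that group, had 83.0 and 84.6 CPM in the SW620 caffeine libraries, against 8.91 and 7.82 CPM in the SW620 controls. Its log2 fold change of 3.32 ± 0.16 (SE, edgeR adjusted p = 1.15e-09) was larger than that of any of the 35 glycolytic members. P4HA1, a collagen prolyl hydroxylase subunit, rose by 1.66 ± 0.12 (edgeR adjusted p = 2.65e-07), BHLHE40, a transcriptional repressor, by 1.60 ± 0.12 (adjusted p = 2.72e-07) and BNIP3L, a mitophagy receptor, by 1.89 ± 0.14 (adjusted p = 2.79e-07). CA12, a membrane carbonic anhydrase, fell by 2.52 ± 0.36 (adjusted p = 0.000207) at 0.476 to 3.06 CPM. VEGFA, DDIT4, ADM, BNIP3, LOX and ANGPTL4 did not pass in SW620. VEGFA was at 260 and 255 CPM in the SW620 caffeine libraries, against 247 and 238 CPM in the SW620 controls. In SW480 1 of the 20 rose and 1 fell, namely DDIT4 (0.90 ± 0.12, edgeR adjusted p = 0.000893) and INSIG2 (-0.63 ± 0.12, adjusted p = 0.0122; 0.109 without SW480 caffeine replicate 2).

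Among 13 regulators of glycolytic transcription 4 rose and 2 fell in SW620, and the 13 log2 fold changes had a median of 0.15. EGLN3, an oxygen-sensing prolyl hydroxylase that is itself hypoxia-inducible, had 79.4 and 65.6 CPM in the SW620 caffeine libraries, against 14.8 and 14.6 CPM in the SW620 controls (log2 fold change 2.30 ± 0.15, SE, edgeR adjusted p = 4.12e-08). TXNIP, which restrains glucose uptake, rose in SW620 (0.48 ± 0.12, edgeR adjusted p = 0.012) and in SW480 (0.62 ± 0.12, adjusted p = 0.0115). MLXIPL, the carbohydrate-response factor ChREBP, fell by 1.03 ± 0.13 in SW620 (edgeR adjusted p = 8.23e-05) and by 0.75 ± 0.14 in SW480 (adjusted p = 0.00874), and MLXIP, its relative MondoA, fell by 0.50 ± 0.12 in SW620 (adjusted p = 0.00893). The remaining risers were ARNT and EGLN1, and EPAS1 fell in SW480 by 0.66 ± 0.13 (edgeR adjusted p = 0.0122). HIF1A, the subunit that oxygen regulates mainly at the protein level, had 178 and 207 CPM in the SW620 caffeine libraries, against 174 and 187 CPM in the SW620 controls, and did not pass. The SW620 calls of TXNIP, ARNT, EGLN1 and MLXIP were lost without SW620 caffeine replicate 2 or either SW620 control (edgeR adjusted p 0.0847 to 0.283), and those of EGLN1 and MLXIP also without SW620 caffeine replicate 1 (0.0642 and 0.0519). Without SW480 caffeine replicate 2 none of the SW480 calls of TXNIP, MLXIPL and EPAS1 held (edgeR adjusted p = 0.0945, 0.147 and 0.170), and EPAS1 also missed the threshold without SW480 control replicate 1 (0.0652).

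**Figure D4:**
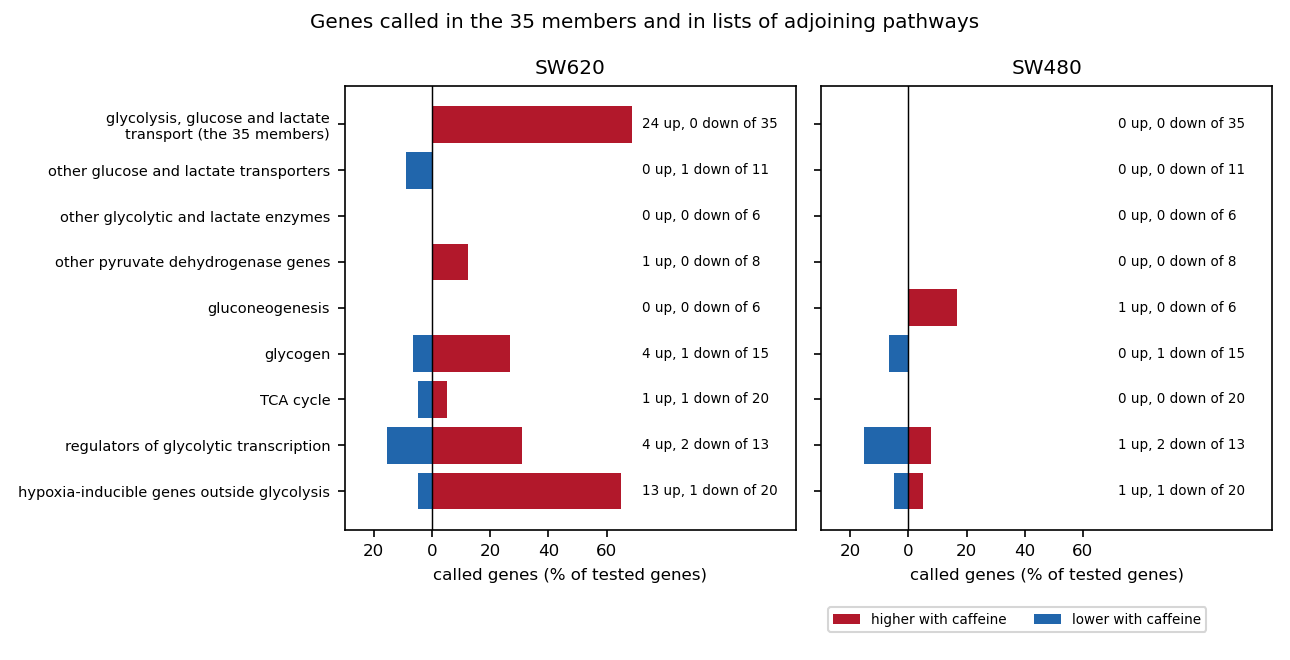
Share of tested genes called higher (right of 0) or lower (left of 0) with caffeine (x axis, %) in the 35 glycolytic genes and in 8 lists of adjoining pathways, for SW620 (left) and SW480 (right). In SW620 the bars reach 24 of 35 for glycolysis and 13 of 20 for hypoxia-inducible genes, and in SW480 no list has more than 1 gene higher.

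On chromosome 12, GAPDH, TPI1, ENO2 and SLC2A3 lie between positions 6533927 and 7936275 (GRCh38), and all 4 rose in SW620. Of the 19 tested genes between GAPDH and TPI1 2 were higher and 1 lower, the 1 between TPI1 and ENO2 was not called, and of the 18 between ENO2 and SLC2A3 0 were higher and 2 lower.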

How the data were processed

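Poly-A RNA of 8 libraries was sequenced as single-end reads of 75 bases after a directional kit, per the labels' protocols. The authors deposited raw counts, that is reads per Ensembl gene, 1 file per library. Trim Galore, STAR 2.7.3a, featureCounts 2.0.5 and hg38 are named in the submitters' processing notes, while the strand setting and the annotation release are not given in the sources used here. Per the files' own totals, 13.3% to 17.5% of listed reads were set aside for low mapping quality and 7.36% to 8.37% as ambiguous, which lowers genes with copies or overlaps: 13 members have named processed pseudogenes and 8 share exon bases on the same strand. The 12 total rows of each file were left out, and 62625 of the 62649 gene IDs were matched to symbols. Coordinates and exon lengths came from GENCODE 29 (GRCh38) and promoter sequences from RefSeq (GRCh38.p14), with the HK1 window not printed because it lies on a coding exon.

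The counts were tested with edgeR 4.0.16 (filterByExpr, TMM scaling, robust quasi-likelihood fit, F test) in R 4.3.3, with 1 coefficient per group in a single fit to the 8 libraries, and Benjamini-Hochberg adjustment over the 17671 tested genes at 0.05. The SE is the absolute log2 fold change divided by the square root of F, and CPM is after TMM scaling. That SE rests on 1 spread per gene shared by the 4 groups, so it is not the spread of either line alone. Replicate numbers did not pair the libraries: deviations of same-numbered libraries correlated at 0.0265 in SW480 and 0.0134 in SW620. Replicates differed by more than counting noise, so none was counted as a repeat of another. Chi-square per degree of freedom between replicates was 2.74 for untreated SW620 and 9.50 for SW620 with caffeine. It was 18.9 for untreated SW480 and 37.1 for SW480 with caffeine.

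Alternatives were DESeq2 size factors, no filter, DESeq2 1.42.0, limma-voom (limma 3.58.1), a replicate block, a separate fit of each line, no mitochondrial genes, each library left out and other gene lengths. The code was tested on simulated data. The members, lists and tests were chosen with earlier results of these data known, and 1 list is not reported here. Values are given for every member called in a caffeine contrast or in the difference between lines and for the highest member of each step. The other members are given by ranges and counts. Up to 4 genes per other list are given by adjusted p, other names being added where a count of 5 or fewer called for them. HIF1A and the hypoxia-inducible genes that did not pass in SW620 were named in addition.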

Additional observations from a re-analysis of the deposited data

Results flagged for a closer look

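The caffeine effect differed between the lines (SW620 minus SW480, edgeR interaction contrast, adjusted p under 0.05) for 17 of the 35 genes, always with the larger log2 fold change in SW620. The log2 differences were 2.78 for SLC2A3, 2.17 for ENO2, 1.95 for ALDOC, 1.53 for PFKFB4, 1.42 for HK1, 1.37 for PGK1, 1.24 for PDK3, 1.17 for PGM1, 1.10 for LDHA and 1.03 for SLC2A1. These 10 differences were called under every alternative tried. The other 7 were 0.92 for PFKFB3, 0.84 for PDK1, 0.78 for GPI, 0.76 for PFKP, 0.75 for GAPDH, 0.73 for SLC16A3 and 0.59 for HK2, and each of them was lost under at least 1 alternative. The labels give caffeine doses and times for SW620 alone and tie none to a sequenced library, so a difference in exposure and a difference between the lines cannot be told apart.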

How the results depend on the processing

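The caffeine calls of the members in SW620 kept their direction in all 360 repeats (24 genes under 15 alternatives) and stayed past the threshold in 342. All 18 losses came with single SW620 libraries left out. Single libraries left out gave 17 to 27 members called in either direction, and the number called lower was 0 with all libraries and 3 when SW620 was fitted alone. Over all genes the SW620 count was 2537, with 4617 in the separate fit and 787 to 3225 with single libraries left out. In SW480 the member count was 0, with 3 without the filter on low counts (PDHA1, ALDOA and TPI1) and 0 to 3 with single libraries left out. Over all genes it was 636 there, with 1073 without the filter and 50 to 1367 with single libraries left out. For the difference between lines, single libraries left out gave 11 to 19 members and 421 to 2156 genes, beside 17 and 1185 with all libraries, and for the untreated lines 19 to 24 members and 9687 to 11763 genes. With the replicate number as a block, which the labels do not define as a pairing, 24 members were called in SW620, 0 in SW480, 16 for the difference and 22 between untreated lines, and the differences of GAPDH and HK2 had an adjusted p of 0.0574 and 0.0631 by edgeR. Without length scaling the leading isoform differed between untreated lines in 5 families in place of 4, the pyruvate dehydrogenase kinases being added. With caffeine it then differed in 3 families in SW620 in place of 2, the phosphofructokinases being added, and in 2 families in SW480 in place of 0. The fit without mitochondrial genes gave unaltered member counts in all 4 comparisons. With 2 libraries per group an exact permutation test cannot pass 0.05, and a change in a gene near the floor of 3 counts was not detectable.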
